A study of Mus musculus with 6 samples.

Results

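The atypical protein kinase C and Par polarity genes were read out here as every probe whose RefSeq accession belonged to Prkci, Prkcz, Pard3, Pard3b, Pard6a, Pard6b, Pard6g, Llgl1, Llgl2 or Insc. These 10 genes had 16 probes among the 55681 on the array. The RNA came from tail epidermis of wild-type C57BL/6 mice, with 3 young samples taken at 8 weeks of age and 3 aged samples. Aged replicate 1 was taken at 22 months, and the remaining 2 at 25 months. No transgene or treatment of the animals is named in the labels, and the epidermis was freed from the dermis with 5 mM EDTA for 3.5 hours. There was 1 array per sample, read in 1 colour. The labels do not say whether the samples came from separate animals, so every p-value measures only the spread between these samples.

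Atypical protein kinase C binds the adaptor Par6 and the scaffold Par3 at one side of a polarised epithelial cell, and phosphorylates Lgl proteins, which restricts them to the opposite side. In dividing cells Inscuteable joins Par3 to the proteins that turn the mitotic spindle, and in mouse epidermis this module has been tied to the choice between divisions along and across the basement membrane. Collagen XVII, the hemidesmosome collagen of basal keratinocytes, has been linked to atypical protein kinase C in the epidermis.

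The data were of like quality on the 6 arrays. The 75th percentile of the signal lay between 230.2 and 300.3 units, 50.02% to 54.38% of probes were well above background, and no spot was saturated. The basal keratinocyte markers (Krt5 and Krt14 among 5) and the suprabasal markers (Krt1 and Krt10 among 5) were well above background on all 6 arrays, as the tissue label gives. The Y-linked genes Ddx3y and Eif2s3y were well above background on young replicate 1 and aged replicate 1 and on no other array, so these 2 arrays stood apart from the remaining 4. Values below are log2 signal minus the array's 75th percentile, so that 0 is the signal that 75% of its spots do not exceed. Levels are compared between samples for 1 probe, never between probes, and in bulk tissue fewer cells of a type cannot be told apart from less RNA per cell. Precision is limited by the 3 arrays per group.

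Prkcz was the member with the largest difference, so the windows around its annotated starts are shown in 300 bases each, most of them before the start. RefSeq (GRCm38.p6) gives 3 starts in the table used, and all 3 Prkcz probes carry the same accession, so the probes do not tell the starts apart. The start of its paralog Prkci is shown for comparison. Capitals mark the GC box GGGCGG on either strand, read as CCGCCC on the other.
Prkcz first start, chr4:155361379-155361678, minus strand: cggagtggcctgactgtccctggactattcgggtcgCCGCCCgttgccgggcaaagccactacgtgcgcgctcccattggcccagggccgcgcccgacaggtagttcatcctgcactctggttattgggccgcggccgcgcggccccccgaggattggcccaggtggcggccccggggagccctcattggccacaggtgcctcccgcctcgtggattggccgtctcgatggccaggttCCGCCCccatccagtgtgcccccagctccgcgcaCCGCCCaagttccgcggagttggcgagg
Prkcz second start, chr4:155345740-155346039, minus strand: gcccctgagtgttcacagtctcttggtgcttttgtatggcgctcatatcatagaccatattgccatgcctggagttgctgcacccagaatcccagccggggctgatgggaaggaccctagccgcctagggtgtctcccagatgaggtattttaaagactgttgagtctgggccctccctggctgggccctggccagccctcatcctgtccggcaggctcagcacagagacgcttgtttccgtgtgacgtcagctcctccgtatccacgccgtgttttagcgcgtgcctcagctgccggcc
Prkcz last start, chr4:155344700-155344999, minus strand: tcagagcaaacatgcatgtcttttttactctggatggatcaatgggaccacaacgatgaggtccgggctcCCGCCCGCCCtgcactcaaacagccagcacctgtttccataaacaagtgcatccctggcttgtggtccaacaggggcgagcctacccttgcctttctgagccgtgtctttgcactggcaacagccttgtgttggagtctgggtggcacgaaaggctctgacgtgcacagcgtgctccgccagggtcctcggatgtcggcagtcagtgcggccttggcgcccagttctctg
Prkci start, chr3:30995521-30995820, plus strand: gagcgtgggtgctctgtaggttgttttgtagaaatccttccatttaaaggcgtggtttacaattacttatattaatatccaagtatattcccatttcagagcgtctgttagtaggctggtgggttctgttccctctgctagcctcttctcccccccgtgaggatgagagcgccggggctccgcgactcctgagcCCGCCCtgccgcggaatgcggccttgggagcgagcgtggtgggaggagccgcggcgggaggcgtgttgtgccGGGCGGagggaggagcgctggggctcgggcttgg

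The first start of Prkcz held 31 CpG dinucleotides and 3 GC boxes. The second held 13 CpG and 0 GC boxes, and the last 14 CpG and 2 GC boxes that overlap each other. The Prkci window held 22 CpG and 2 GC boxes. Over 32841 windows of this length the median was 7 CpG, and 35.7% held a GC box. The AP-1 motif TGANTCA and the TATA motif TATAAA, searched on both strands, were found in 0 of these 4 windows, against 7.81% and 13.6% of all windows. The E-box CANNTG was found 2 times at each Prkcz start and 0 times at the Prkci start, against 72.3% of windows with at least 1. No GC box overlapped another motif searched. These matches describe the letters in the windows only.

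Probes were tested if at least 3 arrays read them well above background, which held for 14 of the 16 probes, of 8 of the 10 genes. Of these 14, 11 were lower and 3 higher in aged epidermis, where 44.0% of all tested probes were lower. Prkcz, Pard3 and Llgl2 gave 3, 4 and 2 of the lower probes, so these are not independent genes and nothing is read from this count. Pard3b and Llgl1, a Par3 paralog and an Lgl gene, had 1 probe each, well above background on 0 of 6 arrays. The Pard3b probe read between -6.38 and -5.24 and the Llgl1 probe between -7.01 and -6.52, and no difference is given for them. The Llgl1 probe is assigned to 1 of several RefSeq transcripts of the gene, so its dim signal does not describe the others. With limma, 0 of 14 tested probes passed an adjusted p of 0.05, as did 17 of all 29508 tested probes (0.0576%). At an unadjusted p under 0.05 there were 4 member probes of 14, against 17.8% of all probes; 3 were lower, where 8.11% of all probes were, and 1 was higher, where 9.67% were. The 3 lower probes were those of Prkcz, 1 transcript, and 2 of them passed the detection filter through the young arrays, so nothing is read from that count. Of the 12 member probes well above background on all 6 arrays, 3 were at an unadjusted p under 0.05, against 18.3% of such probes. The groups did not overlap for 7 member probes, against 26.0% of all probes. Of these, 5 were lower in aged epidermis and 2 higher, where the shares over all probes were 9.72% and 16.3%. The 3 Prkcz probes are among the 5, so nothing is read from this count either. The median difference was -0.13 log2 units over the 14 probes, in which genes with several probes weigh more, and 0.045 over all probes tested.

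**Figure D1:**
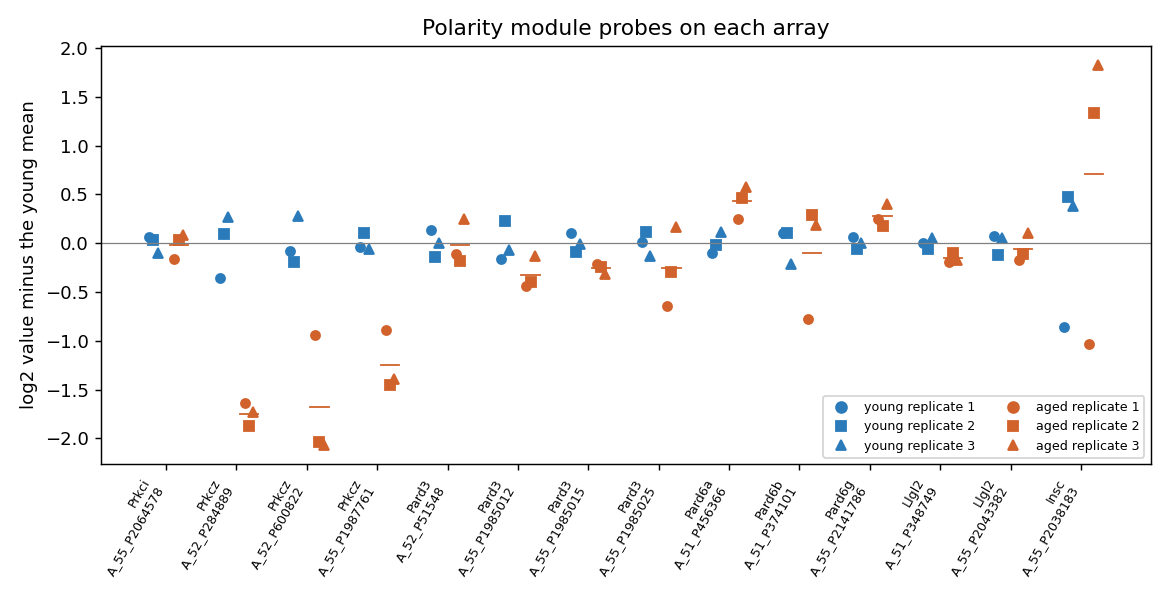
Each of the 14 tested probes of the polarity module (horizontal axis) with its value on each array as log2 minus the young mean (vertical axis); blue, young; orange, aged; symbols, replicates; short orange lines, aged means. The aged values of all 3 Prkcz probes lie between -0.89 and -2.07, below every young value, while most other probes stay within 0.65 of 0, and the Insc probe spreads from -1.03 to 1.83.

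The transcript of Prkcz, the zeta isoform of atypical protein kinase C, gave lower signals on every aged array with all 3 of its probes, and none of the 3 passed over all probes. The brightest, A_55_P1987761, was well above background on all 6 arrays. It read -1.85, -1.71 and -1.87 on young replicates 1, 2 and 3, and -2.70, -3.26 and -3.20 on the aged replicates. The young values lay within 0.17 of each other and every aged value lay below them. The difference was -1.24 ± 0.18 (SE, n = 3 arrays per group, 95% interval -1.68 to -0.81, 2.37-fold, limma adjusted p = 0.101).

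The other probes of Prkcz gave the same order of groups nearer the background. A_52_P284889 read -3.23, -2.78 and -2.61 on the young arrays and -4.51, -4.75 and -4.60 on the aged arrays. It was well above background on 3 young arrays and 1 aged array, aged replicate 1. Its measured difference was -1.74 ± 0.19 (SE, limma adjusted p = 0.0590). A_52_P600822 read -2.97, -3.08 and -2.61 on the young arrays and -3.83, -4.92 and -4.95 on the aged arrays, again with aged replicate 1 the only aged array well above background. Its measured difference was -1.68 ± 0.33 (SE, limma adjusted p = 0.128). Both probes passed the detection filter through the group where they were high, so the sizes of their differences rest on aged signals that were mostly not well above background, and no fold is given for them. The brightest probe is the one measured in both groups, and the 3 probes share 1 transcript, so they are not independent measurements of the difference.

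Aged replicate 1 had the highest aged value of all 3 Prkcz probes. Without that array the differences were -1.42, -1.80 and -2.05, and all 3 probes passed (limma adjusted p = 0.00818, 0.0146 and 0.00731), as did 1424 of all probes (4.83%). That fit lacks the only aged sample of 22 months and keeps a young array with Y-linked transcripts. In it A_52_P284889 and A_52_P600822 were well above background on no aged array, so nothing is read from their passing. Without both arrays that carried Y-linked transcripts, the differences were -1.44, -1.98 and -2.09 (adjusted p = 0.0354, 0.0255 and 0.0379, with 1.16% of all probes passing). This fit had 2 arrays per group. A_52_P284889 and A_52_P600822 were again well above background on no aged array in it, so nothing is read from their passing here either. With any single array other than aged replicate 1 left out, no Prkcz probe passed, and neither did any other tested probe. The limma adjusted p of A_55_P1987761 was then 0.184 to 0.338. The arrays sat in 2 rows of 1 slide, young replicates 1 and 2 in the first and all others in the second. Within the second row, against the single young array there, the differences were -1.18, -2.01 and -1.96, which is also the value with the row as a block. Background correction by normexp with an offset of 50 units gave -0.59, -0.39 and -0.44 (limma adjusted p = 0.0791, 0.138 and 0.122). That offset exceeds the processed signal of A_52_P284889 and A_52_P600822 on every array. It also exceeds that of A_55_P1987761 on the aged arrays (46.3, 29.1 and 25.1 units), though not on the young (72.1 to 79.9 units).

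**Figure D2:**
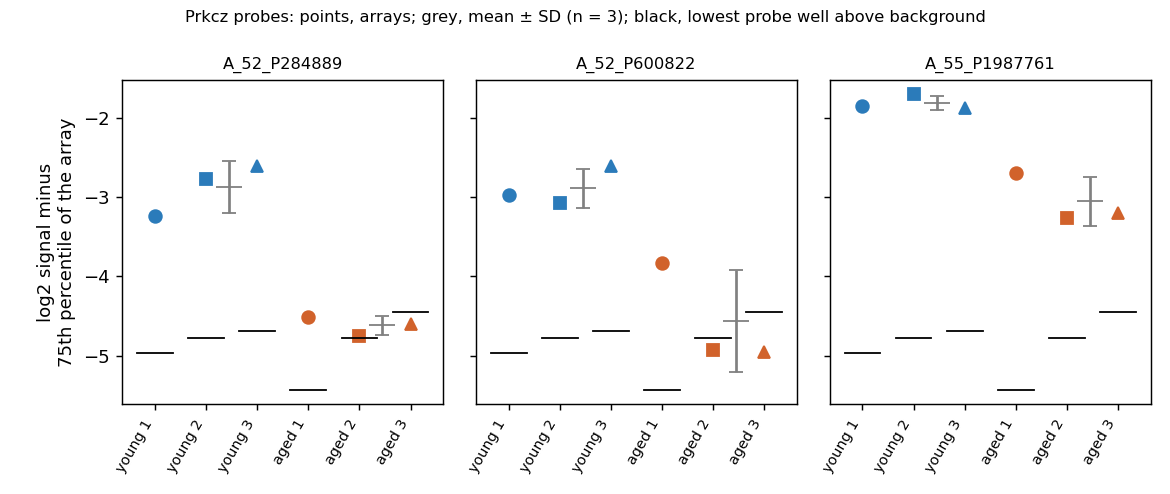
Log2 signal minus the array's 75th percentile (vertical axis) of the 3 Prkcz probes on the 6 arrays (horizontal axis); points, arrays; grey, mean ± SD with n = 3; black lines, the lowest signal of any probe well above background on that array. The 3 aged points lie below the 3 young points in each panel, and only A_55_P1987761 stays clear of the black lines on every array.

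Prkci, the iota isoform (also called lambda in mouse) and the paralog of Prkcz, had overlapping groups. Its probe read 4.97, 4.94 and 4.81 on the young arrays and 4.75, 4.94 and 4.99 on the aged arrays. Young and aged values lay in 1 common range, with a difference of -0.015 ± 0.12 (SE, 95% interval -0.31 to 0.28, limma adjusted p = 0.961). Its sign turned with arrays scaled to the median, with the slide row as a block, with array weights and with single arrays left out, so no direction is given. Within each array, Prkcz minus Prkci, set to a young mean of 0, was -0.10, 0.07 and 0.03 on the young arrays and -0.73, -1.49 and -1.47 on the aged arrays. This within-array difference was -1.23 between the groups (exact permutation test, two-sided, p = 0.1, the smallest that 3 against 3 arrays can give, and 0.4 adjusted over the 4 pairs of paralogs that could be compared).

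Pard3, the scaffold Par3, had 4 probes, all well above background on every array. A_55_P1985015 read 2.19, 2.00 and 2.08 on the young arrays and 1.87, 1.85 and 1.77 on the aged arrays. Its groups did not overlap, and it differed by -0.26 ± 0.11 (SE, limma adjusted p = 0.295). A second probe assigned to the same transcript, A_52_P51548, differed by -0.02 ± 0.16 with overlapping groups, and its sign turned with arrays scaled to the median and with single arrays left out. A_55_P1985012 and A_55_P1985025, assigned to other Pard3 transcripts, differed by -0.32 ± 0.16 and -0.26 ± 0.22, also with overlap. The last of these read 2.71 on aged replicate 1 and 3.53 on aged replicate 3, a spread wider than that of the young arrays, which lay between 3.23 and 3.48. The 4 probes of Pard3 therefore ranged from -0.32 to -0.02, with adjusted p from 0.295 to 0.965.

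The Par6 adaptors, which hold atypical protein kinase C and bind the GTPase Cdc42, were measured by 1 probe each. Pard6a read -1.06, -0.97 and -0.84 on the young arrays and -0.70, -0.49 and -0.38 on the aged arrays. Every aged value lay above every young value, and the difference was 0.43 ± 0.13 (SE, 95% interval 0.10 to 0.76, 1.35-fold, limma adjusted p = 0.214). Pard6g read 5.41, 5.28 and 5.35 on the young arrays and 5.59, 5.53 and 5.75 on the aged arrays. Its groups did not overlap either, with a difference of 0.28 ± 0.12 (SE, 95% interval -0.00330 to 0.555, 1.21-fold, adjusted p = 0.286). Pard6b read -2.73, -2.73 and -3.05 on the young arrays and -3.61, -2.55 and -2.64 on the aged arrays.

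For Pard6b aged replicate 1 lay below every other array, and the remaining 2 aged arrays lay above every young one. Its difference was -0.10 ± 0.30 (SE, limma adjusted p = 0.891) and was 0.24 without aged replicate 1. Within arrays, Pard6a minus Pard6b differed by 0.53 between aged and young, Pard6a minus Pard6g by 0.15 and Pard6b minus Pard6g by -0.37. The exact permutation p-values were 0.2, 0.3 and 0.5 (two-sided, 0.4, 0.4 and 0.5 adjusted over the 4 pairs), and with 3 arrays per group no pair could have reached 0.05.

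Llgl2, an Lgl gene of epithelia and a substrate of atypical protein kinase C, was measured by 2 probes. A_51_P348749 read 2.04, 1.97 and 2.10 on the young arrays and 1.85, 1.94 and 1.87 on the aged arrays. These groups did not overlap, with a difference of -0.15 ± 0.10 (SE, limma adjusted p = 0.473). The second probe, A_55_P2043382, differed by -0.06 ± 0.13 with overlapping groups (adjusted p = 0.836), and its sign turned when arrays were scaled to the median.

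Insc, which encodes Inscuteable, was the most variable member. Its probe was well above background on all 6 arrays and read -4.52, -3.19 and -3.29 on the young arrays and -4.70, -2.33 and -1.84 on the aged arrays. Replicate 1 was the lowest sample of both groups, and aged replicates 2 and 3 lay above every young array. The difference was 0.71 ± 0.79 (SE, 95% interval -1.22 to 2.63, limma adjusted p = 0.667). Between arrays of the same replicate number, aged minus young was -0.18 for replicate 1, 0.85 for replicate 2 and 1.45 for replicate 3. With the replicate number as a block, the difference was 0.71 ± 0.34 (SE, limma adjusted p = 0.335). Without both replicate 1 arrays the difference was 1.15 ± 0.21 (adjusted p = 0.0838), and with single arrays left out it lay between 0.15 without aged replicate 3 and 1.58 without aged replicate 1. The replicate 1 arrays are those with Y-linked transcripts, and the part of this in the Insc values was not tested.

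A list of 45 partner genes was set beside the module, and 40 of them were tested, each by its brightest probe. Crb1, Crb2, Dlg4, Jam2 and Jam3 had no probe well above background on 3 arrays. Of the 40, 27 were higher and 13 lower in aged epidermis, and 36.4% of all 14136 tested genes were lower. By limma 0 partner genes passed the threshold, where 0.0778% of all genes did. At an unadjusted p under 0.05 there were 3 higher and 1 lower, 10% of the list against 17.7% of all genes (11.4% higher and 6.34% lower). Blocking on the replicate number left 2, where 19.5% of all probes were at that level. Without aged replicate 1 there were 9, where 21.9% of all probes were, and 2 genes passed, Mark1 and Itgb4, where 4.83% of all probes did. Without young replicate 2, young replicate 3 or aged replicate 2 there were 0 at an unadjusted p under 0.05 (9.82%, 10.1% and 12.7% of all probes). There were 2 without young replicate 1 (17.7% of all probes) and 1 without aged replicate 3 (15.3%). The groups did not overlap for 10 partner genes, or 25% of the list, against 27.0% of all genes; 8 were higher, against 19.5%, and 2 lower, against 7.48%. The median difference was 0.11 log2 units.

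Among the Par-1, Par-4 and Par-5 genes, 7 of 12 were higher and 5 lower. Mark1, a Par-1 kinase that excludes Par3 from the opposite side of the cell, read 1.17, 1.09 and 1.13 on the young arrays and 0.90, -0.06 and 0.32 on the aged arrays. Every aged value lay below the young ones, with a difference of -0.74 ± 0.25 (SE, 1.67-fold, limma adjusted p = 0.225, and -0.998 without aged replicate 1, adjusted p = 0.0284). With any other single array left out, the limma adjusted p of Mark1 was 0.300 to 0.513. Among the genes of the spindle machinery that Inscuteable binds, 5 of 6 were higher. Gnai1 and Gnai2, inhibitory G protein subunits that anchor this machinery to the membrane, differed by 0.38 ± 0.13 and 0.29 ± 0.11 (adjusted p = 0.230 and 0.247), without overlap of the groups.

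Cdc42, the GTPase that binds Par6, read between 5.10 and 5.20 on the young arrays and between 5.25 and 5.41 on the aged arrays, and differed by 0.20 ± 0.11 (SE, limma adjusted p = 0.379). Scrib, which acts with Lgl on the basolateral side, differed by 0.12 ± 0.11 (adjusted p = 0.612), and its groups overlapped. Of the genes of collagen XVII and its integrin 3 of 3 were higher by their means, 0 of 3 passed, and 2 of the 3 had overlapping groups; as 36.4% of all genes were lower, nothing is read from this count or from that of the spindle genes. Col17a1 read 5.79, 5.60 and 5.52 on the young arrays and 5.62, 5.91 and 6.16 on the aged arrays, with overlap and an adjusted p of 0.450. Itgb4, the integrin chain that binds plectin in hemidesmosomes, differed by 0.59 ± 0.20 (adjusted p = 0.226, and 0.79 with adjusted p = 0.0325 without aged replicate 1). With any other single array left out, the limma adjusted p of Itgb4 was 0.262 to 0.540.

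**Figure D3:**
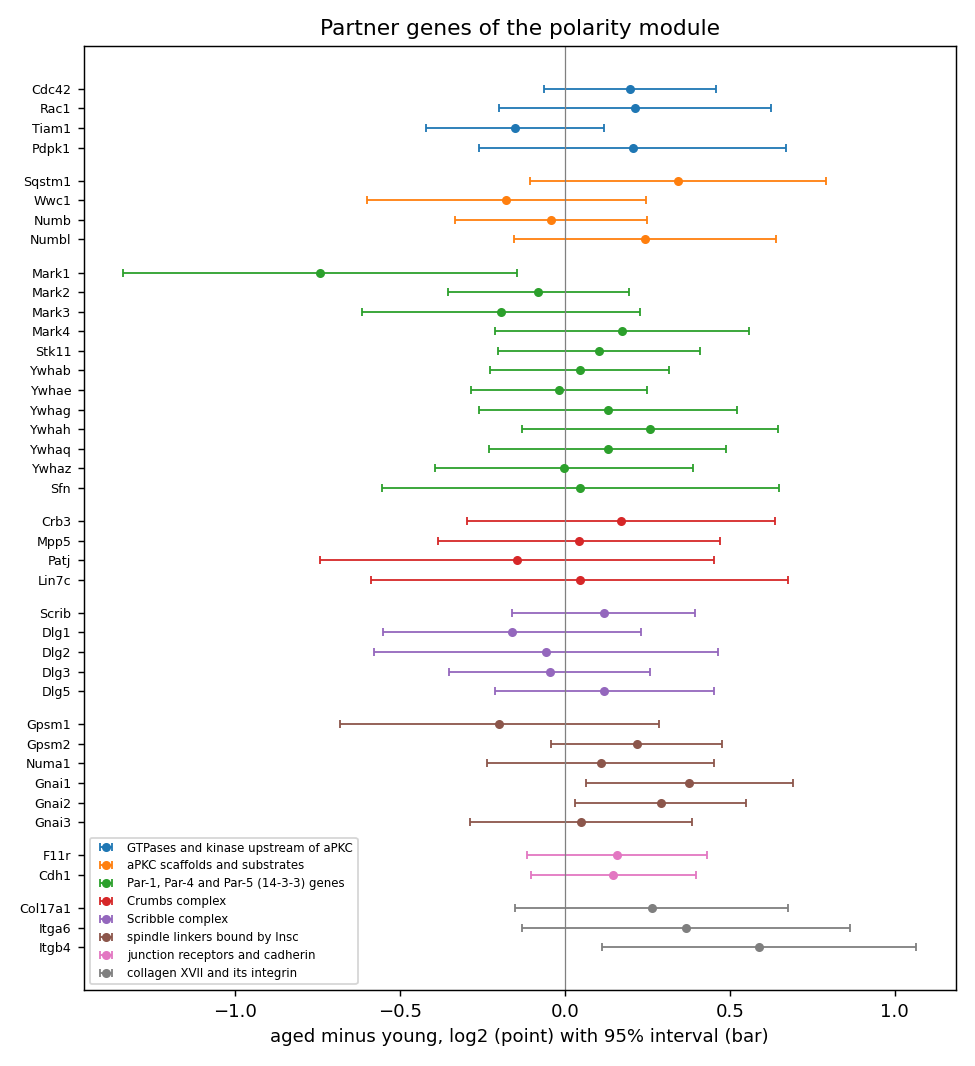
Aged minus young on the log2 scale (horizontal axis; points, with bars for the 95% interval from limma) for the 40 tested partner genes (vertical axis), coloured by group. Bars of Mark1, Gnai1, Gnai2 and Itgb4 lie to one side of 0, and 27 of the 40 points lie above 0.

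Genes with a pattern near that of Prkcz were ranked by the root mean square difference over the 6 arrays of values centred on the young mean. For A_55_P1987761, the Prkcz probe well above background on every array and chosen as a reference after its values were seen, the nearest among 17107 probes of other named genes detected on all 6 arrays included Ache, the gene of acetylcholinesterase (0.11 log2 units), Nckap5 (0.12), Pitpnc1, a phosphatidylinositol transfer protein gene (0.14), and Bin1, a gene of membrane curvature (0.16). For Ache the centred values on the aged arrays were -0.92, -1.55 and -1.17, beside -0.89, -1.45 and -1.39 for the Prkcz probe. For A_52_P284889, the probe of smallest p, the nearest 5 among 18573 tested probes were Dok1, Cadps, Chac1, Plagl1 and Gm34396, at 0.20 to 0.29. On 2 of the 3 aged arrays that probe was not well above background, and the order of those 5 rests in part on such values.

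Marker lists of other cell types are set beside Prkcz here. In the fibroblast list Col1a1 and Col3a1 had lower signals in aged epidermis (limma adjusted p = 0.0274 and 0.0481). Col1a1 was well above background on 2 of the 3 aged arrays and Col3a1 on 0, so the sizes of these differences are uncertain. No marker of the hair, melanocyte, Langerhans cell or follicle stem cell lists passed, the smallest adjusted p being 0.110, for Mitf. Of 11 markers of hair shaft and inner root sheath (Krt25 and Krt27 among them), 10 were tested and 10 were lower, with list medians of -0.65, -3.17 and -5.88 log2 units from the young mean on aged replicates 1, 2 and 3. The list's summed level, as a multiple of the array's 75th percentile, was 877.6 to 1367 on young and 21.7 to 717.6 on aged arrays. The 7 melanocyte markers (Tyr and Tyrp1 among them) were all lower by their group means, with medians of -0.18, -1.76 and -2.41, of which the first lay next to that of young replicate 1 (-0.16), and summed levels of 15.1 to 19.0 on young and 4.89 to 13.6 on aged arrays. Of 5 fibroblast markers (Col1a1 and Col1a2 among them) 4 were tested and 3 were lower, with medians of -2.02, -2.38 and -2.33. Their sum, which Dcn dominates, was 5.30 to 8.15 on young and 2.51 to 20.6 on aged arrays. Pdgfra was not tested.

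The 6 Langerhans cell markers (Cd207 and Cd74 among them) were lower by their group means, with medians of -4.03, -1.21 and -0.02, near 0 on aged replicate 3, and summed levels of 8.51 to 12.6 on young and 1.39 to 10.5 on aged arrays. The 5 hair follicle stem cell markers (Lgr5 and Cd34 among them) had medians of -0.09, -0.48 and -1.39, with sums of 26.4 to 32.8 on young and 9.61 to 29.6 on aged arrays. The brightest Prkcz probe differed from the young mean by -0.89, -1.45 and -1.39 on aged replicates 1, 2 and 3. The part of these cell types in the Prkcz values was not tested. The 5 basal keratinocyte markers had medians of 0.12, 0.24 and 0.21 on the aged arrays, and the 5 suprabasal markers -0.05, -0.06 and 0.09.

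For Insc, the sebaceous gland markers (Scd1 and Awat1 among 5) ran the other way, highest on the replicate 1 array of each group, with medians of 0.50, -0.17 and -0.32 on the young and 1.29, 0.50 and -0.66 on the aged arrays. Their summed level was 37.6 to 70.1 on young and 33.6 to 123.5 on aged arrays, and their part in the Insc values was not tested. This order was not particular to them. The hair shaft, Merkel cell and nerve, and T cell medians were also highest on the replicate 1 array of each group. Those of the Merkel cell and nerve list were 0.65, -0.41 and -0.25 on the young and -0.06, -0.46 and -0.95 on the aged arrays. The part of these lists in the Insc values was not tested either. Of the remaining lists, the T cell list had 3 of 5 markers tested (Cd3d and Trac were not), with sums of 2.38 to 3.64 on young and 3.96 to 10.2 on aged arrays. That sum followed Thy1, which differed by 1.60, while Cd3e differed by 0.07 and Cd3g by -0.97, and the list medians on the aged arrays were 0.09, 0.07 and 0.04. The endothelial list had 2 of 4 tested (Cdh5 and Tek were not), the Merkel cell and nerve list 3 of 5 (Krt20 and Atoh1 were not) and the striated muscle list 1 of 4 (Ckm, Myh4 and Tnnt3 were not).

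**Figure D4:**
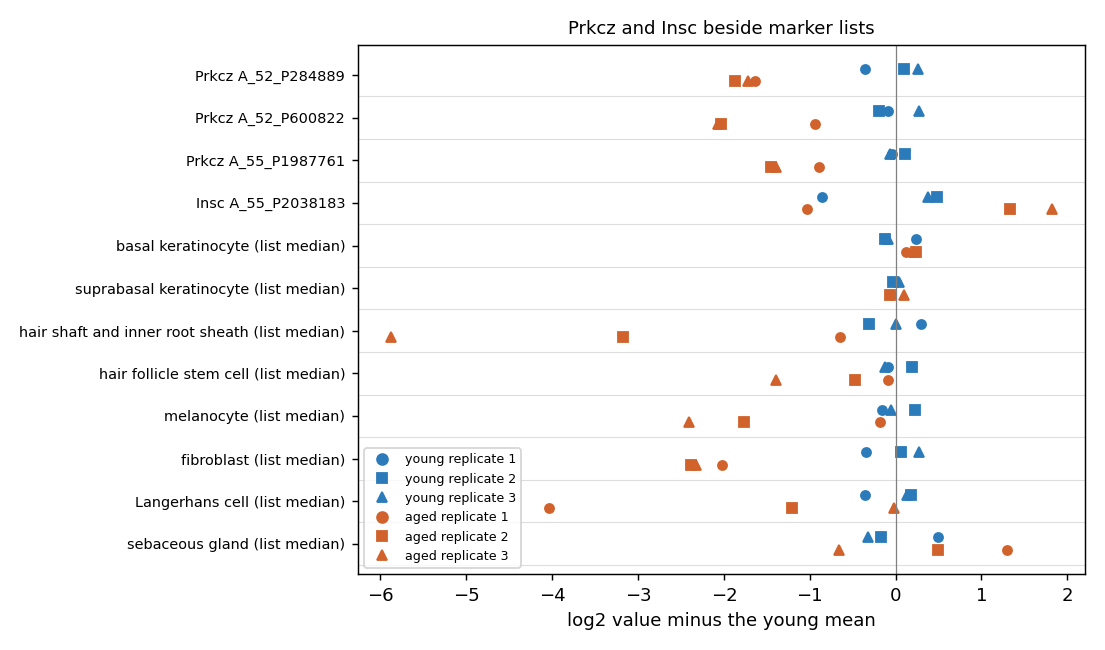
Log2 value minus the young mean (horizontal axis) for the Prkcz and Insc probes and for the medians of 8 marker lists (vertical axis); blue, young; orange, aged; symbols, replicates. The hair shaft, follicle stem cell, melanocyte, fibroblast and Langerhans cell medians lie below 0 on all 3 aged arrays, as the Prkcz probes do. The Langerhans cell median is -0.02 on aged replicate 3 and the follicle stem cell median -0.09 on aged replicate 1. The basal keratinocyte median lies between 0.12 and 0.24 on the aged arrays, and Insc is lowest on the replicate 1 array of each group.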

How the data were processed

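Total RNA was amplified to cDNA and labelled with Cy3, per the labels' protocols. Arrays were read with Feature Extraction 11.5.1.1 (1 slide, 1 scan), per the file headers. Its processed signal, deposited by the authors, is an intensity per spot, linear, after background subtraction and spatial detrending, per the file headers. The authors' deposited table of log2 values (33870 probes) matched the log2 signal minus the 75th percentile once each probe's median was taken off, with a correlation across probes of at least 0.9999 per array; its column medians were -0.013, -0.021 and -0.021 for young and -0.0087, 0.016 and 0.071 for aged replicates 1, 2 and 3. Its processing is not given in the sources used here.

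Control spots and flagged outlier spots (116 to 170 per array, 0 of them of member probes) were left out, spots of a probe were averaged, and log2 signal minus the array's 75th percentile was used. Probes were named through RefSeq accessions (GRCm38.p6; 28331 of 55681 probes matched). Coordinates are from the RefSeq windows; the array files use mm9, whose coordinates were not used. Probes well above background on at least 3 of 6 arrays were fitted in R 4.3.3 with limma 3.58.1 (two-sided, no covariate), with Benjamini-Hochberg adjustment over all 29508 and a threshold of 0.05; the script was tested on simulated data. Differences are aged minus young. Paralogs were compared by exact permutation. Alternatives covered filters, normexp (on median signals, since no mean signal column was in the files), quantile and median scaling, 1 probe per gene, the deposited table, blocks, array weights and left-out arrays. The members, lists and tests were chosen with earlier results of these data known. Named were all members; Col17a1, Cdc42 and Scrib; up to 3 genes per partner group at an unadjusted p under 0.05; and the 5 genes nearest to the member probe of smallest p. Genes nearest to the Prkcz probe detected on all arrays were added after seeing the data; 1 of them is not reported here.

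Both groups carry replicate numbers 1 to 3 in the titles. Across probes, the deviations from the group mean of samples with 1 number correlated with r = 0.410, 0.258 and 0.107. The highest r was that of replicate 1, whose arrays both carried Y-linked transcripts. Deviations within a group sum to 0, so 1 similar pair can raise the others. What links samples of the same number is not stated in any label. A pairing was therefore only taken as possible. It entered the replicate block alone, and the main fit and its standard errors ignore it.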

Additional observations from a re-analysis of the deposited data

How the results depend on the processing

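The count of member probes past the threshold was 0 of 14 with all arrays. It was 1 with arrays scaled to the median (Prkcz A_52_P284889, limma adjusted p = 0.0454), where 0.115% of all probes passed. It was 3 without both replicate 1 arrays (1.16% of all probes) and 0 to 3 with each array left out in turn (0% to 4.83%). The 3 were the Prkcz probes in both cases. Both times aged replicate 1 was left out, so A_52_P284889 and A_52_P600822 were well above background on no aged array. Nothing is read from the passing of these probes. It was 7 with array weights, where 35.1% of all probes passed; the weight estimate did not converge and gave aged replicate 2 a weight of 13.2 against 0.22 to 1.90 for the other arrays. At an unadjusted p under 0.05 the member count of 4 became 2 with the brightest probe per gene (8 probes) and 9 with array weights. The shares over all probes in these settings were 18.4% and 47.6%. With single arrays left out the member count lay between 3 and 5, and the share over all probes between 9.82% and 21.9%. Of the 40 partner genes 12 passed with array weights and 0 to 2 with single arrays left out (35.1% and 0% to 4.83% of all probes). Their count of 4 at an unadjusted p under 0.05 became 2 with the replicate block, 1 with the slide row as a block, 16 with array weights, 7 without both replicate 1 arrays (19.5%, 6.69%, 47.6% and 25.1% of all probes in these 4 settings) and 0 to 9 with single arrays left out. With the replicate block 0 of 29508 probes passed, and it changed no call of a member.

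Differences of all 3 Prkcz probes, of 3 Pard3 probes, and of Pard6a, Pard6g, Insc and Llgl2 A_51_P348749 kept their direction under every alternative run. The 4 within-array pairs kept theirs with normexp, quantile and median scaling and with single arrays left out. They were not run under the other alternatives, among them the blocks and array weights. With array weights Pard6b differed by 0.33 and Pard6g by 0.20, the reverse of that pair's order. Other probe differences changed sign. Prkci was 0.061 with median scaling, 0.081 with the slide row, 0.065 with array weights, 0.088 without both replicate 1 arrays and -0.063 to 0.057 with single arrays left out (0.0025 without young replicate 2, 0.016 without young replicate 1). Pard3 A_52_P51548 was 0.059 with median scaling, 0.099 without both replicate 1 arrays and -0.15 to 0.066 with single arrays left out. Pard6b was 0.11 with the slide row, 0.33 with array weights, 0.29 without both replicate 1 arrays and -0.29 to 0.24 with single arrays left out. Llgl2 A_55_P2043382 was 0.015 with median scaling and 0.033 without both replicate 1 arrays. The cause was not tested. Signals near background, as of 2 Prkcz probes and Insc, limit the size of these differences.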
